A study of Mus musculus with 6 samples.

Results

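The nonsense-mediated decay (NMD) factors described here are *Upf1*, *Upf2*, *Upf3a*, *Upf3b*, *Smg1*, *Smg5*, *Smg6*, *Smg8* and *Smg9*. They were listed by name, from their known role in the pathway. Of the 23698 gene rows of each count table, 9 matched a factor, each with a row under its own name and none joined to another gene. The study asked how 5′UTR isoforms relate to translation in mouse skin and in squamous cell carcinoma. Files of 3 libraries were used here, 1 ribosome profiling library and RNA-seq replicates 1 and 2, all from cultured squamous cell carcinoma cells (SCCc). These cells are primary keratinocytes from the back skin of P0 mice, they carry HrasG12V and Tgfbr2 fl/fl KO, and they were used at passages 10 to 15. The replicate libraries share this genotype, and the labels do not say whether they came from separate cultures. The 3 Nanopore samples of the series (epidermal stem cells sorted by SCA-1 from adult C57BL6 back skin, wild-type keratinocytes carrying R26-Sox2-IRES-eGFP fl/+, and SCCc) and any wild-type ribosome profiling were not analysed here. The values therefore place the NMD factors among the other genes of SCCc, and no test between conditions was possible.

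NMD degrades mRNAs on which the ribosome terminates in an unfavourable position, typically upstream of an exon junction complex left behind by splicing or far from the poly(A) tail. The helicase UPF1 is recruited to such ribosomes, contacts UPF2 and UPF3 proteins, and is phosphorylated by the kinase SMG1, whose activity is held in check by SMG8 and SMG9. Phosphorylated UPF1 then attracts the endonuclease SMG6 and the adaptor SMG5, which helps to bring in deadenylation and decapping enzymes. Several of these factors are encoded by mRNAs that are known targets of the pathway themselves, through upstream open reading frames or long 3′UTRs.

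Ribosome profiling sequences mRNA fragments protected by ribosomes, called footprints, and RNA-seq measures mRNA abundance. The ribosome profiling library had 3549555 counts on exons in total, and RNA-seq had 10707930 in replicate 1 and 14003713 in replicate 2. The NMD factors held 1898 of these footprints, 9519 of the counts of replicate 1 and 11670 of those of replicate 2. That is 535 counts per 1e+06 exon counts in ribosome profiling, against 889 and 833 in RNA-seq. Levels are given as RPKM, that is counts scaled to kilobases of counted sequence and to the exon counts of the library. Translational efficiency is a log2 ratio, with the footprint RPKM of the CDS divided by the exon RPKM averaged over the RNA-seq replicates, set to 0 at the median of the 9862 genes that passed the filters, and all 9 NMD factors passed. Only 1 ribosome profiling library of SCCc was used, so its values have no replicate here, and further ribosome profiling libraries of SCC cells that the study lists were not analysed here. Each footprint value is given with its exact Poisson 95% interval, which covers counting error only, and the SD of a translational efficiency is that over the RNA-seq replicates (n = 2). This SD leaves out the counting error of the footprints and can be far smaller. For *Upf3b* it was 0.01, where the footprint counting interval of its translational efficiency ran from -0.08 to 0.42. The RNA-seq replicates varied more than Poisson counting of whole-number counts would give, at a chi-square of 7.52 per degree of freedom across passing genes, and were kept as separate replicates. Their log2 ratio, replicate 2 over replicate 1, varied across these genes with an SD of 0.20.

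The annotated transcripts of the NMD factors (GENCODE M21, GRCm38) had a median CDS of 3054 nt, against 1389 nt over passing genes, with a shorter median 5′UTR (103 against 178 nt) and a similar 3′UTR (958 against 1038 nt). An ATG upstream of the start codon was present in 4 of the 9 factors, beside 50.7% of passing genes. The bases around each of these upstream ATGs (in capitals, 5′ to 3′) are shown because footprints on the 5′UTR of these mRNAs are described further on, and the start codon of *Smg5* is added for comparison.
Smg5 upstream ATG: cctcacagcgATGgcggccg
Smg9 upstream ATG: gcggcgcATGcgccgag
Upf2 upstream ATG: cccggggctaATGttgacaa
Smg1 upstream ATG: gcgcttggccATGtcgtgtc
Smg5 start codon: cccaggcaccATGagccaag
The upstream ATG of *Smg5* lay 121 nt before the start codon at chr3:88336424-88336426 (plus strand) and opened a frame of 30 codons that ended before the CDS. It was the only one of the 4 with both a purine at position -3 and a G at +4, the context known to favour initiation (the A of ATG is +1). The upstream ATG of *Smg9* lay 272 nt before the start codon and opened a frame of 35 codons that also closed before the CDS, with neither base. In *Upf2* and *Smg1* the frame began 38 and 20 nt before the start codon and held 12 and 6 codons, and the last base of its stop codon was the A of the start codon. At the start codons themselves, all 9 factors had a purine at -3, beside 86.5% of passing genes, and 2 of 9, *Smg6* and *Smg8*, had a G at +4, beside 54.4%. None of the 9 annotated transcripts had an exon junction more than 55 nt after its stop codon, the textbook NMD feature, which 0.299% of passing genes had. Annotations use about this distance to label NMD transcripts, so few transcripts labelled as coding keep such a junction. A further transcript annotated as an NMD target was listed for 3 of the 9 factors (*Smg1*, *Smg5* and *Smg6*), beside 31.1% of passing genes.

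*Upf1*, the helicase at the centre of the pathway, had 566 footprints on its CDS of 3372 counted nt, while RNA-seq gave 1277 exon counts in replicate 1 and 1792 in replicate 2. This gave 47.3 footprint RPKM (95% interval 43.5 to 51.4) and 25.8 and 27.7 RNA-seq RPKM. It had the highest footprint density of the 9 factors and the second highest RNA-seq level. Its log2 translational efficiency was 0.48 ± 0.08 (SD, n = 2), above that of 65.8% of passing genes. Against all passing genes, *Upf1* was the only factor whose footprint counting interval, 0.36 to 0.60 on this scale, lay above 0. In comparisons described further on, its value was 0.08 under the strictest count filter and 0.85 against genes with a CDS as long as those of the factors. At its 3′ end it overlaps *Cers1* and *Gdf1* on the opposite strand over at most 68 nt. The row joining those genes had 0.149 and 0.173 RNA-seq RPKM and no footprints. In whole-culture RNA, fewer cells expressing a gene and less RNA per cell cannot be told apart, here and for each level that follows.

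*Upf2*, the scaffold between UPF1 and UPF3 proteins, had 153 CDS footprints, and 946 and 977 RNA-seq counts. Its levels were 11.3 footprint RPKM (9.61 to 13.3) and 17.1 and 13.5 RNA-seq RPKM. *Upf2* differed more between the RNA-seq replicates than any other factor, with a log2 ratio of -0.34. Only *Upf2* and *Smg1* exceeded, in size, the SD of that ratio across genes. Its log2 translational efficiency was -0.78 ± 0.23, with -0.93 against replicate 1 and -0.61 against replicate 2, on the same side of the median in each. The footprint density of *Upf1* was 4.17 times that of *Upf2* (exact conditional 95% interval 3.48 to 5.01), whereas RNA-seq RPKM was 1.51 and 2.05 times as high in replicates 1 and 2.

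*Upf3a* and *Upf3b* encode paralogs that link UPF2 to the exon junction complex, UPF3B being the more active of the pair in NMD. The annotated transcripts shared 0 words of 28 nt, so no read of that length matches both exactly. *Upf3a* had 78.6 CDS footprints, and 471 and 642 RNA-seq counts, which gave 17.5 footprint RPKM (13.8 to 21.8) and 31.4 and 32.7 RNA-seq RPKM. *Upf3b* had 129 footprints and 426 and 545 RNA-seq counts, or 25.7 footprint RPKM (21.5 to 30.6) and 18.2 and 17.8 RNA-seq RPKM. The paralogs thus stood in opposite order in the 2 assays. *Upf3a* had the highest RNA-seq level of the 9 factors, 1.73 and 1.84 times that of *Upf3b* in replicates 1 and 2, while its footprint density was 0.680 times that of *Upf3b* (0.511 to 0.913). Log2 translational efficiency was -1.22 ± 0.05 for *Upf3a* and 0.17 ± 0.01 for *Upf3b*. The difference was -1.39, with a footprint counting interval from -1.80 to -0.97. Of the annotated 3′UTR of *Upf3a*, only 66 of 719 nt were counted, so its RNA-seq level rests almost entirely on the CDS.

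**Figure D1:**
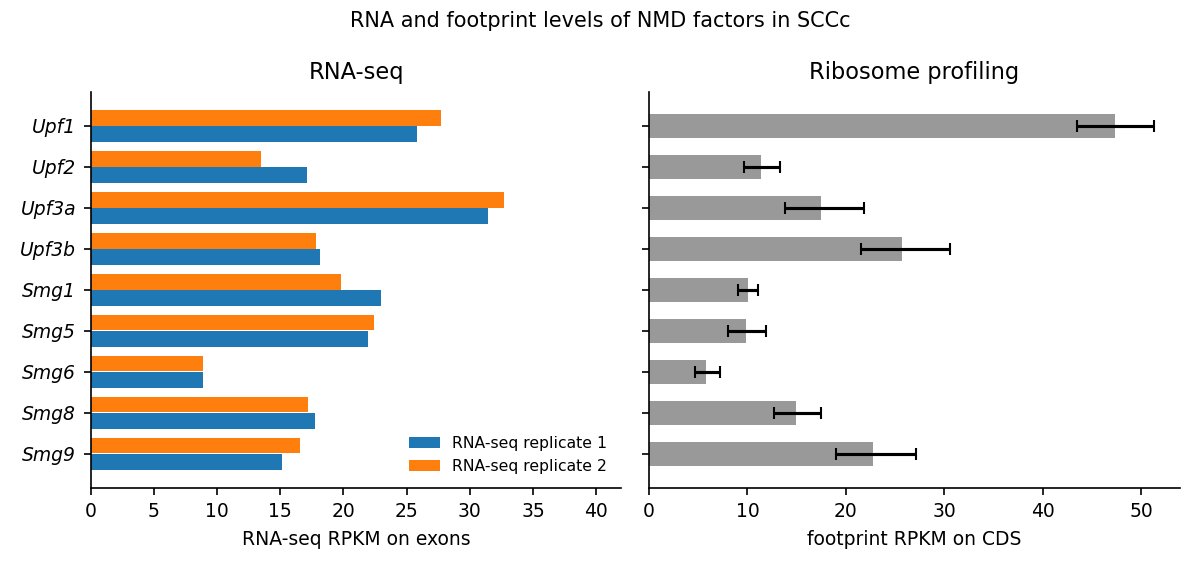
RNA-seq RPKM on exons in each replicate (left, coloured bars) and footprint RPKM on the CDS with its exact Poisson 95% interval (right, grey bars) for the 9 NMD factors in SCCc. *Upf3a* has the highest RNA-seq level and *Upf1* the highest footprint level, and *Smg6* is lowest in both panels.

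The kinase *Smg1* had 391 footprints on its CDS of 10974 counted nt, the longest of the factors, and 3829 and 4307 RNA-seq counts. Its footprint level was 10.0 RPKM (9.07 to 11.1) beside 23.0 and 19.8 RNA-seq RPKM. Its log2 translational efficiency of -1.43 ± 0.14 was higher than that of only 13.8% of passing genes. The value was -0.96 with RNA-seq counted over the CDS, a setting under which all 9 factors stood higher relative to the median of genes. The partners in the kinase complex had more footprints for their length. *Smg8* had 158 footprints, 15.0 RPKM (12.7 to 17.5), beside 17.7 and 17.2 RNA-seq RPKM. *Smg9* had 126 footprints, 22.8 RPKM (19.0 to 27.1), beside 15.1 and 16.5 RNA-seq RPKM. Footprint density thus fell in the order *Smg9*, *Smg8*, *Smg1* with no overlap of the intervals, and *Smg9* was 2.27 times as high as *Smg1* (1.84 to 2.78). On exons, *Smg9* had 0.657 and 0.837 times the RNA-seq RPKM of *Smg1*, and *Smg8* had 0.772 and 0.868 times. Counted on the CDS alone, the order of the RNA-seq levels differed between the replicates. There, *Smg9*, *Smg8* and *Smg1* had 18.2, 20.4 and 21.5 RNA-seq counts per 100 nt in replicate 1, but 26.5, 25.8 and 24.9 in replicate 2. Log2 translational efficiency was -0.56 ± 0.02 for *Smg8* and 0.18 ± 0.10 for *Smg9*. The value of *Smg8* was 0.33 when counts were not divided by length, the only setting that put it above the median.

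*Smg6*, the endonuclease that cuts the target mRNA, had the lowest level of the 9 factors in both assays. It had 87.9 footprints on 4254 counted nt of CDS, 5.82 RPKM (4.67 to 7.17), and 8.89 and 8.87 RNA-seq RPKM from 552 and 721 counts. Its log2 translational efficiency was -0.95 ± 0.01. The 5′ end of *Smg6* overlaps *Srr* on the opposite strand over 126 nt, and 44 of its 93 annotated nt of 5′UTR were counted. *Srr* had 13.0 and 12.5 RNA-seq RPKM. Whether counting used the strand is not given in the sources used here, so reads in such overlaps cannot be told apart.

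*Smg5*, the adaptor that binds phosphorylated UPF1, had 107 footprints on 3051 counted nt of CDS and 1045 and 1394 RNA-seq counts. This gave 9.85 footprint RPKM (8.07 to 11.9) and 21.9 and 22.4 RNA-seq RPKM. By the mean of the RNA-seq replicates *Smg5* ranked behind only *Upf3a* and *Upf1*, although *Smg1* was above it in replicate 1. Its footprint level was next to last and could not be separated from that of *Smg1*. Its log2 translational efficiency, -1.51 ± 0.03, was above that of 12.7% of passing genes and was the lowest of the 9, except against replicate 1 alone, where *Smg1* was lower.

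Across the 9 factors, the RNA-seq levels spanned 3.61-fold and the footprint densities 8.13-fold. The median RNA-seq level of the factors was 18.0 RPKM, beside 15.3 over passing genes, and 8 of the 9 were above that median, among them *Upf2*, which at 15.3 RPKM stood at the median itself. The median footprint density was 15.0 RPKM, beside 19.1 over passing genes, and 3 of the 9 were above it. The median log2 translational efficiency of the factors was -0.78, and -0.93 and -0.61 against RNA-seq replicate 1 and 2 alone. Each of these medians is the value of *Upf2*, the factor that differed most between the replicates. Translational efficiency was above the median of all genes for 3 of 9 factors (*Upf1*, *Smg9* and *Upf3b*), where 50.0% of all genes are by definition. It was above 1 for none of the 9, beside 20.7% of passing genes. It was below -1 for 3 of 9 (*Upf3a*, *Smg1* and *Smg5*), beside 21.1% of passing genes. Of these, only *Smg5* stayed below -1 with RNA-seq counted over the CDS (-1.36) or with counts not divided by length (-1.04). With at least 100 counts required in every library, *Smg1* and *Smg5* stayed below -1, *Upf2* (-1.17) was below it as well and *Upf3a* gave no value. The SD was 0.74 across factors and 1.45 across passing genes. These spreads are not alike in counting error, since passing genes needed no minimum number of CDS footprints. They include *Ddit3*, at -3.12 from 9 footprints, and the row of *Sap18*, at 5.44 from 85 counted nt of CDS. The factors had 78.6 to 566 footprints.

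In the order from *Upf1* down through *Smg9*, *Upf3b*, *Smg8*, *Upf2*, *Smg6*, *Upf3a*, *Smg1* and *Smg5*, only 1 of the 8 neighbouring pairs had footprint counting intervals that did not overlap, that of *Upf3b* and *Smg8*. Of all 36 pairs, 24 had intervals that did not overlap. The intervals of *Smg9* and *Upf3b* held 0, and those of the 6 lower factors lay below it. With at least 100 counts required in every library, the comparison was against 4829 genes. *Upf3b* and *Smg9* then stood at -0.22 and -0.21 and *Upf1* at 0.08, within its counting error of 0. Footprints on the CDS, which enter translational efficiency itself, had to reach this minimum too. The setting thus favours genes with many footprints for their RNA. It moved only the median that values are set against, by the same step for every factor left. Genes with a long CDS had lower values in these libraries, with a Spearman's rho of -0.44 between translational efficiency and counted CDS length across passing genes, which are not independent replicates. Against the 5271 genes whose counted CDS was within the range of the factors (1266 to 10974 nt), a comparison chosen after seeing the data, the median of the factors was -0.40, 3 of 9 were above 0 and 2 of 9 were below -1, beside 20.2% of those genes. Each factor stood higher there than against all passing genes, with *Upf1* at 0.85, *Smg9* at 0.56, *Upf3b* at 0.55 and *Smg8* at -0.19. Lengths were not matched within this wide range, so the comparison does not equalise them. The annotated CDS of *Upf3a*, the shortest, exceeds that of 44.8% of passing genes, and that of *Smg5*, at the median of the factors, exceeds 86.6%. With RNA-seq also counted over the CDS, the median was -0.10, the value of *Upf2*, and *Smg8* stood at -0.08. The distance of the factors from the median thus depended on the genes they were set against. The order of close neighbours depended on the RNA-seq counts. Against replicate 1 alone *Smg1* (-1.53) was below *Smg5* (-1.49), and against replicate 2 alone *Upf3b* (0.18) was above *Smg9* (0.11). With RNA-seq counted over the CDS, *Upf3b* (0.48) was above *Smg9* (0.29) and *Upf3a* (-0.99) below *Smg1* (-0.96).

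**Figure D2:**
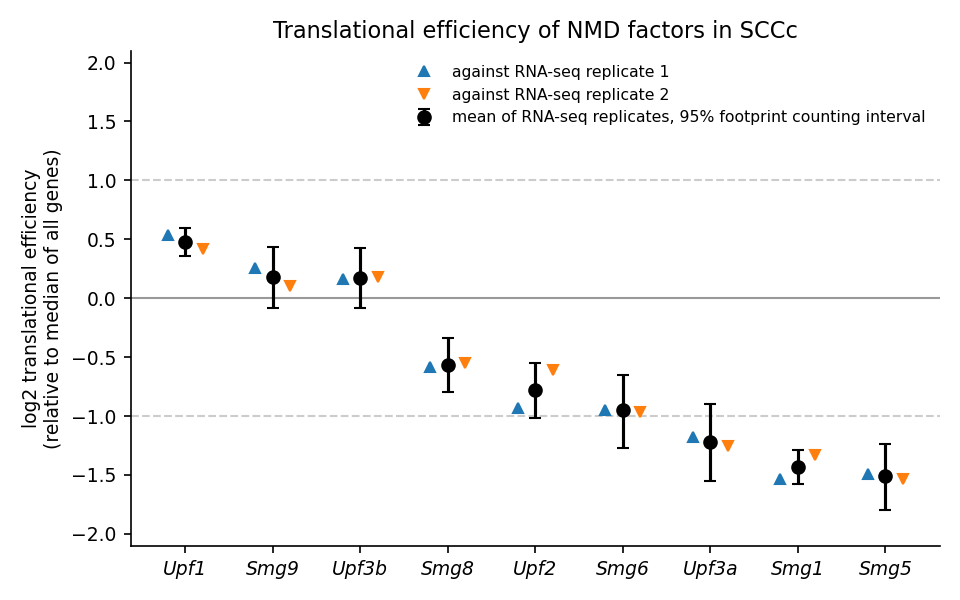
Log2 translational efficiency of each NMD factor in SCCc, relative to the median of all passing genes. Black points use the mean of the RNA-seq replicates and bars are the footprint 95% counting interval. Triangles use a single RNA-seq replicate and dashed lines mark 1 and -1. By the mean of the replicates *Upf1* stands highest at 0.48 and *Smg5* lowest at -1.51.

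The regions of the mRNAs were compared first by their shares of counts and then per counted nt. Of the footprints of the 9 factors on the 3 regions, 94.7% fell on the CDS, 4.18% on the 5′UTR and 1.16% on the 3′UTR. Over all genes the shares were 93.4%, 4.67% and 1.91%. In RNA-seq, the factors had 72.9% and 74.2% of their counts on the CDS and 26.5% and 24.96% on the 3′UTR in replicates 1 and 2. Over all genes these shares were 68.7% and 70.2% on the CDS and 27.7% and 25.7% on the 3′UTR. The 5′UTRs of the factors held 0.581% and 0.813% of the RNA-seq counts, where all genes had 3.55% and 4.12%. These shares are not scaled to length, and the factors have shorter 5′UTRs and longer CDSs than genes at large. The annotated 5′UTRs of the factors had a median of 73.2% G or C, beside 65.4% over passing genes, and whether base composition bears on the RNA-seq share was not tested.

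In ribosome profiling, the 5′UTR of *Smg5* stood out when set against its CDS. That 5′UTR held 19.2 footprints on 164 nt, or 11.7 per 100 nt, against 3.50 per 100 nt on the CDS. The log2 density ratio of 5′UTR over CDS was 1.75 (exact conditional binomial 95% interval 0.94 to 2.44), higher than in 99.2% of the 7378 genes with at least 20 counted nt of 5′UTR and 30 footprints on the CDS. RNA-seq on the same 5′UTR was sparse, with 4.21 counts in replicate 1 and 17.6 in replicate 2, and its log2 density ratios were -3.35 and -1.67. The footprints were counted over the whole 5′UTR, so how many of them lay in the upstream frame shown above was not measured. The 5′UTR of *Upf1* was nearly as dense, at 10.3 footprints per 100 nt, but its CDS held 16.8 per 100 nt. The high ratio of *Smg5* thus rests also on its low CDS density, which enters its translational efficiency as well.

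*Upf2* was the other factor whose 5′UTR exceeded its CDS in footprint density, from 5.35 footprints on 103 nt. Its log2 ratio of 0.37 had an interval from -1.37 to 1.52 and was not distinguishable from 0 at this depth. A higher density on the 5′UTR was thus seen in 2 of 9 factors, beside 14.2% of genes. *Upf1* had 28.7 footprints on 280 nt of 5′UTR and a log2 ratio of -0.71 (-1.29 to -0.16). *Smg1* had 10.0 on 347 nt and a ratio of -0.30 (-1.38 to 0.59). *Upf3b* had 6.73 on 91 nt with -0.31 (-1.59 to 0.84), and *Smg9* had 8.39 on 270 nt with -1.38 (-2.69 to -0.42). Of the 4 factors with an upstream ATG shown above, *Smg5* and *Upf2* had the highest ratios, *Smg1* had one like that of *Upf3b*, which has none, and *Smg9* had one below those of *Upf1* and *Upf3b*, with overlapping intervals. The short counted 5′UTRs of *Upf3a*, *Smg8* and *Smg6* held 0.375, 0.537 and 0 footprints, at or under the 3 counts from which a library can show a signal. The median log2 ratio over the 9 factors was -0.71, beside -1.48 over genes. Summed over the 9 factors, 79.4 footprints fell on 1392 nt of 5′UTR, a log2 density ratio of 0.05 (-0.30 to 0.37), to which *Upf1* and *Smg5* gave the most 5′UTR footprints.

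RNA-seq reads were scarce on several of these 5′UTRs. *Smg1* had 0.317 and 0.861 counts on its 5′UTR in replicates 1 and 2, against 2356 and 2729 on its CDS. *Upf1* had 3.53 and 7.57 on the 5′UTR, against 1115 and 1546 on the CDS. *Smg9* had 26.7 and 37.1, the most of the factors, and its log2 RNA-seq density ratios of -0.88 and -0.94 lay near the median of -0.75 over the 2012 genes with enough counts. *Upf3b* had 12.9 and 21.3, with ratios of -0.43 and -0.10. No factor reached 30 RNA-seq counts on the 5′UTR in each replicate, the minimum for that ratio over genes. Dividing the footprint ratio by the RNA-seq ratio of the same regions moved the median of the factors from -0.71 to 3.60, beside 0.33 over genes, and in 3 of the 9 factors that step rests on less than 1 RNA-seq count per library.

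The 3′UTRs carried few footprints and many RNA-seq reads, as in genes at large. Summed over the 9 factors, 22.0 footprints fell on 10566 nt of 3′UTR and 1796 on 32662 nt of CDS, a log2 density ratio of -4.72 (-5.40 to -4.12). *Smg1*, with the longest 3′UTR, had 6 footprints on 4232 nt. *Smg5* followed with 4.09 and *Upf1* with 3.96, and *Upf3b* had none on 681 nt, which allows a log2 ratio of up to -4.05. The median log2 ratio over the factors was -4.75, beside -5.87 over genes. At these counts single factors could not be ranked.

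RNA-seq density on the 3′UTR stood on either side of that on the CDS, depending on the factor. The ratio could be formed for the 7 factors with at least 30 counts in each region and replicate, which left out *Upf3a* and *Smg8*. The median log2 ratio of the 7 was -0.02, with members well above and well below it, beside -0.52 over the 7035 genes with enough counts. The 3′UTR was denser in 3 of the 7 (*Smg1*, *Upf2* and *Upf3b*), beside 17.5% of genes. *Smg1* had 1473 and 1578 counts on the 3′UTR, and log2 ratios of 0.70 (0.60 to 0.79) and 0.58 (0.49 to 0.67) in replicates 1 and 2. *Upf2* had 290 counts on the 3′UTR in each replicate, with ratios of 0.42 (0.22 to 0.63) and 0.36 (0.16 to 0.56). These 2 genes lay above 93.6% to 97.3% of genes in either replicate. *Upf3b*, at 0.15 and -0.03, and *Smg6*, at -0.11 and 0.07, were within counting error of 0 in each replicate. *Smg5*, at -0.42 (-0.63 to -0.21) and -0.31 (-0.49 to -0.13), and *Smg9*, at -0.55 (-1.01 to -0.11) and -0.66 (-1.06 to -0.29), were below 0. *Upf1* had the lowest ratios of the 7, -1.01 (-1.26 to -0.77) and -0.89 (-1.09 to -0.69). *Smg8*, with 4.06 and 7.09 counts on 224 nt, had ratios of -3.50 and -3.03, and its annotated 3′UTR is the shortest of the factors at 221 nt.

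**Figure D3:**
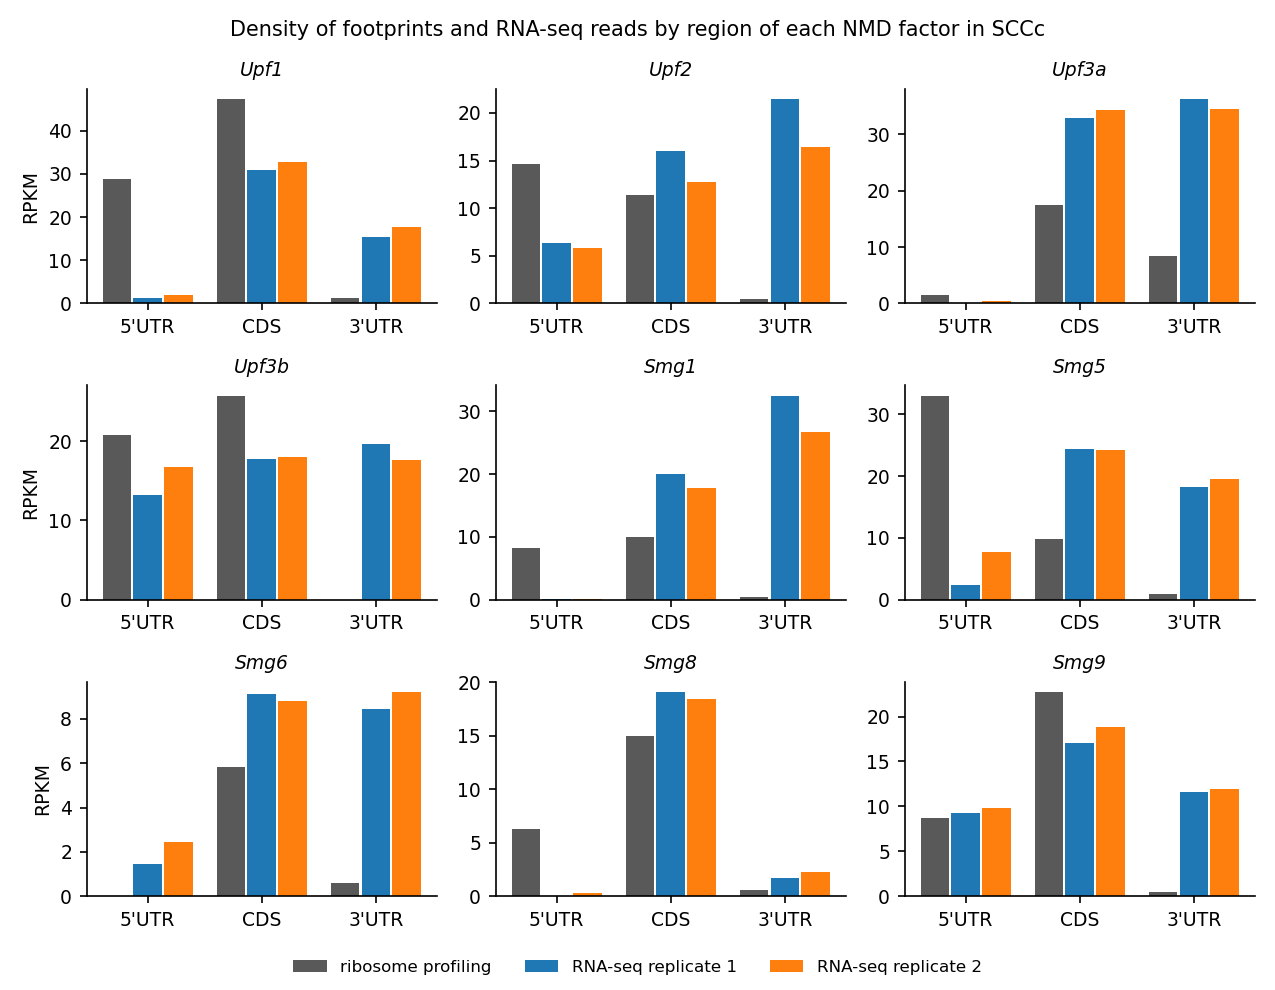
RPKM of footprints (grey) and of RNA-seq replicates 1 and 2 (blue and orange) on the 5′UTR, CDS and 3′UTR of each NMD factor in SCCc, with a separate vertical scale for each gene. In *Smg5* the footprint density of the 5′UTR exceeds that of the CDS, and in *Smg1* and *Upf2* RNA-seq is denser on the 3′UTR than on the CDS.

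Genes that act with the NMD factors were described from lists drawn up by their known roles. Among other NMD cofactors, *Pnrc2*, a decapping cofactor, had 15.5 footprints on the CDS and 128 on the 5′UTR, and a log2 translational efficiency of -2.71. *Ruvbl1* (3.38) rests on 474 counted nt of CDS, and *Ruvbl2*, at 62.0 RNA-seq RPKM, had 1.07. *Nbas* and *Dhx34* stood nearer to the median of genes, at -0.43 and -0.13. The exon junction complex and its peripheral proteins had 8 of 9 listed genes in the tables, *Pym1* not among them, and all 8 passed. Their median was 1.57, with 6 above 1 and none below -1, beside 20.7% and 21.1% of passing genes. Their median counted CDS of 441 nt was shorter than the 3051 nt of the NMD factors. *Eif4a3*, the core helicase of that complex, had 84.4 RNA-seq RPKM and 1.51. The lowest was *Casc3* (-0.56) and the highest *Sap18* (5.44), in a row joined with *Gm10094* and counted over 85 nt of CDS. *Rbm8a* (3.41) and *Rnps1* (1.62), also above 1, had only 62.1% and 36.8% of the CDS counted. In the 5 genes with at least 80% of the CDS counted, the median was 1.51.

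Of the 5 genes of translation termination and ribosome recycling, 4 passed, with a median of 0.90. *Gspt1*, which encodes release factor eRF3, was highest at 1.91 and *Pabpc1*, the poly(A)-binding protein, lowest at -2.45 with 1134 RNA-seq RPKM. *Gspt2* had no RNA-seq counts. Among the 13 genes of decapping, deadenylation and 5′-to-3′ decay, the enzymes that degrade mRNAs from their ends, 12 passed, with a median of -0.34. None was above 1 and 2 were below -1, beside 20.7% and 21.1% of passing genes. The 12 ranged from *Cnot6* (-1.41) to *Edc3* (0.44), a span like that of the NMD factors, and *Cnot8* had the most RNA-seq (46.1 RPKM). *Dcp1b* had no footprints.

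The list of transcripts known as NMD targets held 10 genes, of which 6 passed, with a median of 0.40. Of these, 3 were above 1 and 1 was below -1, beside 20.7% and 21.1% of passing genes. The highest was *Atf3* (2.28), from 30.8 footprints, and the lowest *Ddit3* (-3.12), with 9 footprints on the CDS and 25 on the 5′UTR. *Atf4* had 645 footprints on 594 nt of 5′UTR and 694 on 1047 nt of CDS, a log2 density ratio of 0.71 (0.56 to 0.87), below that of *Smg5*. *Pnrc2*, with 3.13 (2.33 to 3.93), and *Ddit3*, with 3.07 (1.92 to 4.35), had higher ratios than *Smg5* with overlapping intervals, though both rest on fewer than the 30 CDS footprints required for the ranking over genes. The noncoding hosts *Gas5*, *Snhg1* and *Snhg12* have no CDS and had 356, 368 and 45.1 RNA-seq RPKM. No perturbation of NMD was measured in these libraries, so none of these values shows how active the pathway was.

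**Figure D4:**
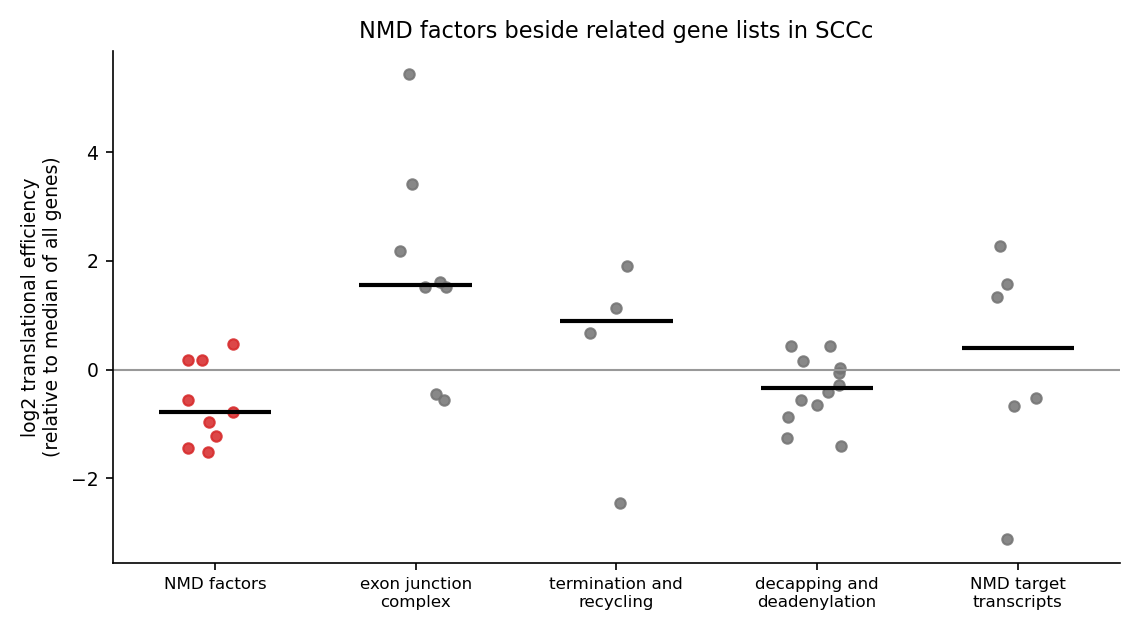
Log2 translational efficiency of each passing gene of the NMD factors (red) and of 4 related lists (grey) in SCCc, relative to the median of all passing genes, with black lines at list medians. The NMD factors lie between -1.51 and 0.48, while the exon junction complex genes, whose median counted CDS is shorter, have a median of 1.57.

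The genes nearest to the median of the factors in RNA-seq level, translational efficiency and RNA-seq 3′UTR over CDS ratio, each scaled by its SD over the 7035 genes with all 3 measures, were *Adnp2*, *Evi5* and *Zc3h7a*. Their distances were 0.0449, 0.0730 and 0.0800 SD units. Their log2 translational efficiencies were -0.82, -0.79 and -0.76.

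Keratinocyte markers were abundant in all 3 libraries. All 6 were detected, and they summed to 8435 footprint RPKM and 13452 and 15494 RNA-seq RPKM, with *Krt5* highest at 8724 RNA-seq RPKM. Their log2 translational efficiencies ran from -1.25 (*Krt5*) to 0.49 (*Cdh1*). The 6 fibroblast markers summed to 0.870 footprint RPKM and 9.93 and 15.5 RNA-seq RPKM, with *Col3a1* highest at 4.69, and 5 of the 6 (*Col1a1*, *Col1a2*, *Col3a1*, *Dcn* and *Lum*) had no footprints on the CDS. The 5 immune markers summed to 10.3 footprint RPKM and 38.0 and 46.2 RNA-seq RPKM, of which *Cd68* alone had 36.2, and *Cd3e* was at 0. The 4 melanocyte markers summed to 0.300, 5.38 and 5.47 RPKM, led by *Pmel*, and the 3 endothelial markers to 0.908, 0.505 and 0.591, led by *Kdr*. The NMD factors themselves summed to 165 footprint RPKM and 179 and 177 RNA-seq RPKM.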

How the data were processed

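The authors aligned reads to GRCm38 with STAR 2.6.1, after removing ribosomal, mitochondrial and tRNA reads from ribosome profiling with Bowtie2 2.4.1 (versions from their processing notes), and counted exons, CDS, 5′UTR and 3′UTR with Plastid. The deposited values are estimated counts that need not be whole numbers, counted lengths in nt, and RPKM. The deposited RPKM served only an alternative filter; RPKM was recomputed from the counts and the sum of exon counts. Genes passed when each RNA-seq replicate had over 1 RPKM, the base mean exceeded 25 and the CDS held footprints. The analysis used Python 3.11.15, numpy 2.4.6, pandas 2.3.3 and scipy 1.17.1. Alternative scalings came from edgeR 4.0.16 and DESeq2 1.42.0 in R 4.3.3, on counts rounded to whole numbers. The calculation was tested on simulated counts. Named genes were the 9 factors, the highest and lowest of each list by translational efficiency, where genes passed, and the highest by RNA-seq RPKM, and the 3 genes most alike. Others, such as *Atf4*, *Nbas*, *Dhx34*, *Gspt2*, *Dcp1b*, *Gas5* and *Snhg12*, were named after their values were seen. A gene of the cofactor list is not reported here, so no count or median is given for that list. The members and lists were chosen with earlier results of these data known.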

Additional observations from a re-analysis of the deposited data

How the results depend on the processing

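The median log2 translational efficiency of the NMD factors stayed below 0 under every alternative run. With either RNA-seq replicate left out it was -0.93 or -0.61, each the value of *Upf2*. It was -0.96 over the 7 factors left with at least 100 counts in every library. With RNA-seq counted over the CDS it was -0.39, and with counts not divided by length -0.21. Relative to genes with a CDS within the length range of the factors it was -0.40, and -0.10 with RNA-seq also counted over the CDS. These last 2 settings were chosen after seeing the data. The number of factors above the median of all genes was 3 with either replicate left out and 1 with at least 100 counts in every library. Under that setting *Upf3a* and *Smg6* gave no value, for want of CDS footprints. *Upf3b* was at -0.22, *Smg9* at -0.21 and *Upf1* at 0.08 there. Since the setting also filters on CDS footprints, it favours genes of higher translational efficiency, and it moved only the median that values are set against. *Smg8* was at 0.33 with counts not divided by length. No other value of a single factor changed sign in the alternatives run, of which the scalings nearly cancel once values are centred on the median of genes. The median RNA-seq ratio of 3′UTR over CDS was -0.112 to -0.026 with a replicate left out and 0.018 with a minimum of 10 counts, which added *Upf3a*. The footprint ratio of 5′UTR over CDS was -0.31 with at least 60 nt of 5′UTR, -0.12 with 1 count added to both regions and 3.60 when divided by the RNA-seq ratio, where few RNA-seq counts lie on the 5′UTRs, beside medians over genes of -1.43, -1.08 and 0.33. That of 3′UTR over CDS stayed between -4.75 and -4.15. Beyond the settings' own construction the cause was not tested. No paired analysis was possible because only 1 ribosome profiling library was used here and no result comes from a test. With 78.6 to 566 footprints on the CDS of a factor, depth limited the order of close neighbours as well as the UTR values.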
